A study of Bos taurus with 12 samples.

Results

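Matrix metalloproteinases (MMPs), the related ADAM and ADAMTS proteases and the tissue inhibitors of metalloproteinases (TIMPs) were followed in bovine endometrium at day 3 and at day 7 of the estrous cycle. They were taken as every probe set whose gene symbol in the array annotation starts with MMP, with ADAM, or with TIMP and a digit, whatever its level, while 1 ADAMTSL probe set, of a family without protease activity, was left out. This gave 53 of 24016 probe sets and 30 of 9155 named genes, with 21 probe sets for 11 MMP genes, 15 for 8 ADAM genes and ADAMDEC1, 8 for 6 ADAMTS genes and 9 for 4 TIMP genes. Where a gene had several probe sets, they are lettered A, B and C in the order of their identifiers. Not every family member was named on the array, and ADAM17 was among those without a named probe set.

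MMPs are zinc-dependent enzymes that are made as inactive proenzymes and, once cleaved, degrade collagens, gelatins, proteoglycans and other parts of the extracellular matrix. ADAMs are mostly membrane-bound and cut growth factors, cytokine receptors and adhesion molecules off the cell surface, and ADAMTS enzymes are secreted and act on proteoglycans and procollagens. TIMPs bind these proteases in their active site and block them, and the endometrium is remodelled under the balance of both in every cycle and at implantation.

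The samples came from Simmental heifers with a synchronized estrous cycle. Endometrial cells were collected with a cytobrush on days 3 and 7 of a cycle without embryo. In the next cycle each heifer received in vitro-produced blastocysts on day 7. Heifers with an embryo on day 28 formed the highly receptive groups (HR3 and HR7, named receptive in the labels) and those without one the groups of low receptivity (LR3 and LR7, named non receptive). Each group was 3 arrays, each array was 1 pool of 5 endometrial samples, and the labels do not say whether the pools of day 3 and day 7 held the same heifers. The authors call the study longitudinal, so heifers may have been sampled on both days. The main fit took the pools of the 2 days as independent. Receptivity was thus assigned from the outcome of a later transfer, and a pool averages its animals, so that the spread between pools is not that between heifers.

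The values were log2 signals, with array medians from 6.64 to 6.77 and 281 to 395 probe sets listed at 0 per array. Of 12 markers of uterine epithelium 10 were measured, and of these KRT8 and PAX8 lay below the array median on every array. All 15 stroma markers were measured, and their median difference was 0.60 for HR3 against LR3, where 15 of 15 were higher in HR3 with none passing the test, and -0.70 for day 7 against day 3, where 4 passed, all lower. In bulk RNA of this kind, fewer cells of a type and less RNA per cell cannot be told apart. Of the metalloproteinase and TIMP probe sets, 10 were above the array median on all 12 arrays, 31 at or below it on all 12, and 9 were listed at 0 on at least 1 array.

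The change between the days was the main contrast for these genes. Of the 53 probe sets, 22 of 16 genes passed the test over both receptivity groups (limma, adjusted p under 0.05), 14 higher and 8 lower on day 7, which is 41.5% beside 28.7% of all probe sets tested. For 9 the 6 pools of day 7 and the 6 of day 3 did not overlap at all, beside 14.3% of all probe sets. By direction, 13.4% of all probe sets passed higher and 15.2% lower. The collagenases MMP1 and MMP13, the gelatinase MMP9, the sheddase ADAM10, the proteoglycan-cutting ADAMTS1 and the inhibitor TIMP2 rose with all of their probe sets, and MMP16 and MMP19 with 1 of theirs. The gelatinase MMP2, ADAM19 and MMP20, each with 1 probe set, fell, and ADAMDEC1, ADAM9, ADAM1B, MMP23 and TIMP4 had 1 probe set each that fell and others that did not pass. The median difference over the 53 probe sets was 0.13 on the log2 scale, beside -0.04 over all probe sets. By family, 9 of 21 MMP probe sets passed (6 higher, 3 lower), 7 of 15 ADAM and ADAMDEC1 probe sets (3 higher, 4 lower), 2 of 8 ADAMTS probe sets (both higher) and 4 of 9 TIMP probe sets (3 higher, 1 lower).

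**Figure D1:**
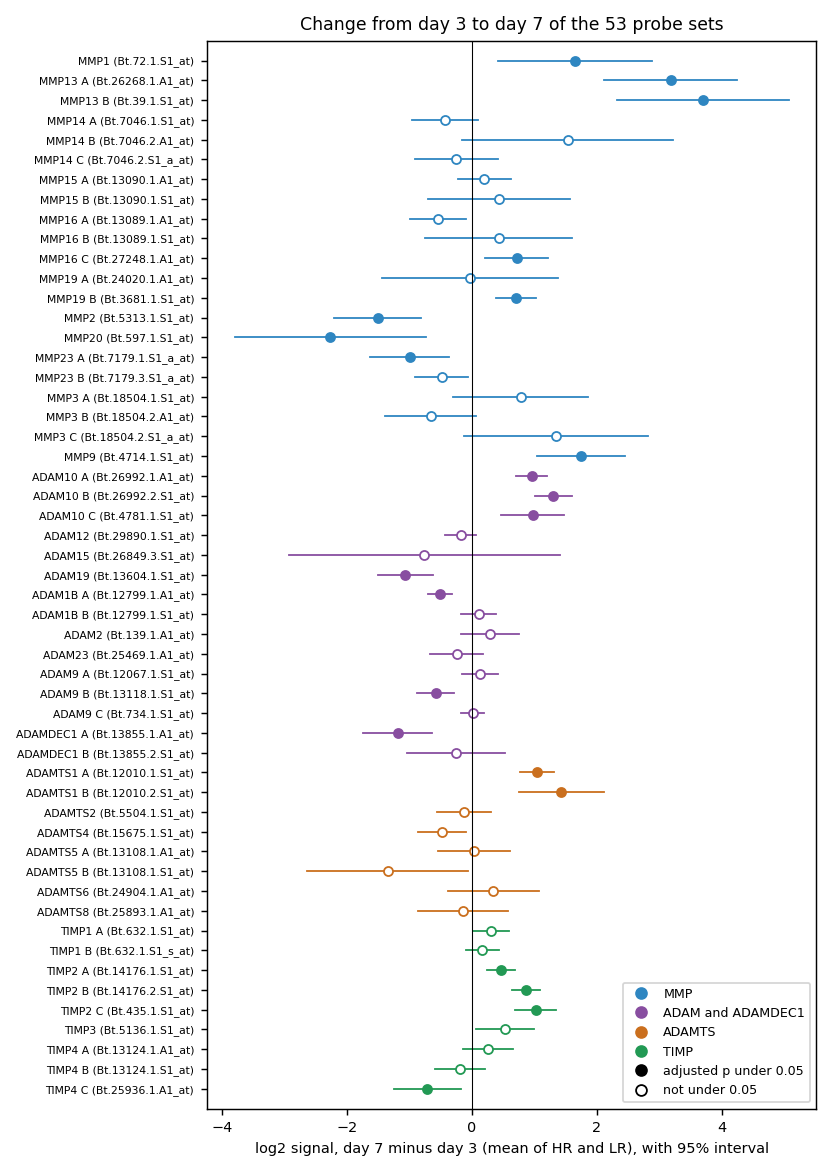
Difference in log2 signal between day 7 and day 3, as the mean of HR and LR, for each of the 53 probe sets with its 95% interval; colours mark the families and filled points an adjusted p under 0.05. The 2 MMP13 probe sets lie farthest to the right at 3.18 and 3.70, and MMP20 and MMP2 farthest to the left at -2.26 and -1.51.

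Among the collagenases, which open the triple helix of fibrillar collagen, MMP13 showed the largest rise of the 53 probe sets. Its log2 signals for probe set A were 4.48, 4.35 and 3.12 (HR3), 2.04, 4.32 and 3.86 (LR3), 7.12, 8.42 and 5.61 (HR7), and 6.60, 6.16 and 7.33 (LR7). All 6 pools of day 7 lay above all 6 pools of day 3. The difference was 3.18 ± 0.49 (log2, SE), which is 9.05-fold, with an adjusted p of 0.000494, and it passed within HR (3.07, adjusted p 0.0119, and 0.0541 without HR7 pool 2) and within LR (3.29). The other probe set, B, was listed at 0, 0 and 2.42 (HR3), 0.61, 2.62 and 0 (LR3), 4.87, 5.94 and 2.92 (HR7), and 4.48, 4.46 and 5.16 (LR7), again without overlap of the days. Its difference of 3.70 ± 0.63 (adjusted p 0.000956) rests on day 3 signals at or near the lowest value of the scale, and after 16 was added to every signal it was 1.21, and 2.17 for probe set A.

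MMP1, the interstitial collagenase, was unevenly spread on day 7. Its log2 signals were 4.62, 5.0 and 4.94 (HR3), 4.88, 4.57 and 4.91 (LR3), 5.05, 8.31 and 4.81 (HR7), and 7.71, 7.67 and 5.25 (LR7). The 6 day 3 pools lay within 4.57 to 5.0, while HR7 pool 2 and LR7 pools 1 and 2 stood at 7.67 to 8.31 and the remaining day 7 pools at 4.81 to 5.25. The difference of 1.65 ± 0.57 had an adjusted p of 0.046, and it did not pass without HR7 pool 2 (1.08, adjusted p 0.0614), without LR7 pool 1 or 2 (at most 0.107), or without any 1 of the day 3 pools (0.0653 to 0.0886). The same 3 pools held the 3 highest day 7 values in 10 of the 53 probe sets, as they did in 6.11% of all probe sets. The 10 include MMP1 itself, all 3 probe sets of MMP3, both of MMP23 and the one of MMP9. The pools were picked from the MMP1 values and several of the 10 share a gene, so this count is not a test.

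MMP3, stromelysin 1, which cuts proteoglycans and activates other MMPs, lies next to MMP1 in the current assembly (ARS-UCD2.0), and MMP13 is separated from MMP3 by MMP12. None of its 3 probe sets passed, with differences of 0.78 (A), -0.66 (B) and 1.35 (C) and adjusted p from 0.159 to 0.274. The values of probe set A were 6.30, 5.50 and 6.73 (HR3), 4.63, 6.35 and 6.90 (LR3), 6.23, 8.33 and 5.19 (HR7), and 7.23, 7.47 and 6.64 (LR7). HR7 pool 2 was highest and HR7 pool 3 among the lowest, so that HR7 alone spanned nearly the whole range.

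The gelatinases moved in opposite directions. MMP9, gelatinase B, a product of neutrophils and other leukocytes as well as of epithelium, had log2 signals of 2.71, 2.17 and 4.02 (HR3), 3.44, 4.21 and 4.30 (LR3), 5.08, 5.74 and 4.59 (HR7), and 5.54, 5.52 and 4.82 (LR7). All day 7 pools were above all day 3 pools, with a difference of 1.74 ± 0.32, or 3.34-fold (adjusted p 0.0017). The probe set stayed below the array median on all arrays, and with 16 added to the signals the difference was 0.93. Beside it, 3 of 6 measured neutrophil markers passed higher and none lower, with a log2 summed signal of 13.99 to 14.01 in HR3, 13.85 to 14.01 in LR3, 14.49 to 14.83 in HR7 and 14.19 to 14.44 in LR7. This sum is set mostly by the brightest markers. The mean log2 signal of the 6 markers was 6.97 to 7.39 in HR3 and 7.19 to 7.36 in LR3. It was 8.80 to 9.30 in HR7 and 8.29 to 8.92 in LR7. The granule markers MPO and ELANE were below the array median on every array. Of 8 macrophage markers, 3 passed higher and 1 lower. By sign alone 4 were higher and 4 lower on day 7, with a median difference of -0.16. Their summed signals were 10.9 to 11.5 in HR3, 10.7 to 11.2 in LR3, 11.1 to 12.2 in HR7 and 11.2 to 11.4 in LR7. The part of either cell type in the MMP9 difference was not tested.

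MMP2, gelatinase A, a typical product of fibroblasts, had log2 signals of 8.28, 8.43 and 7.84 (HR3), 6.64, 7.81 and 7.60 (LR3), 5.70, 5.45 and 7.26 (HR7), and 5.66, 6.87 and 6.61 (LR7). The difference of day 7 from day 3 was -1.51 ± 0.32, a 2.84-fold decrease (adjusted p 0.00394), with HR7 pool 3, LR7 pool 2 and LR3 pool 1 in the range of the other day. Within HR the difference was -2.05 (adjusted p 0.0108, and 0.0519 without HR7 pool 2) and within LR -0.97 (adjusted p 0.178), and the difference between these changes did not pass in the interaction (-1.08, 95% interval -2.47 to 0.32, p 0.119). The stroma markers followed a like course, with a log2 summed signal of 13.8 to 14.2 in HR3, 12.8 to 13.9 in LR3, 12.2 to 14.1 in HR7 and 12.3 to 13.5 in LR7. HR7 pool 3 was the highest day 7 pool and LR3 pool 1 the lowest day 3 pool both for MMP2 and for the stroma markers. The part of stromal cells in the MMP2 difference was not tested.

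**Figure D2:**
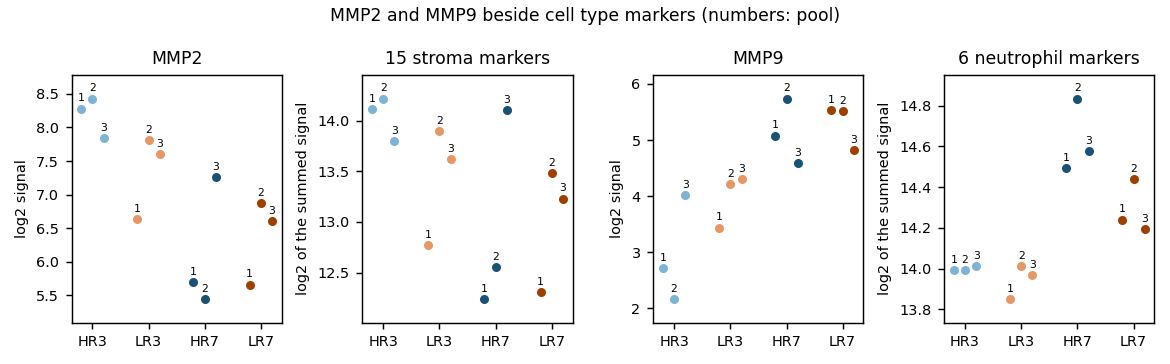
Log2 signal of MMP2 and of MMP9, each beside the log2 of the summed signal of 15 stroma or 6 neutrophil markers, in each of the 3 pools (numbered) of the 4 groups. HR7 pool 3, with MMP2 at 7.26, and LR3 pool 1, with MMP2 at 6.64, stand apart from their groups in both left panels, and both right panels are higher on day 7. A summed signal is set mostly by its brightest markers.

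Of the membrane-type MMPs, which sit on the cell surface, 1 of 8 probe sets passed. This was probe set C of MMP16, higher on day 7 by 0.72 ± 0.23 (adjusted p 0.0341), and the call was lost without any 1 of HR3 pool 1, LR3 pool 1 or 3, HR7 pool 1 and LR7 pool 1 or 3 (adjusted p 0.0616 to 0.0829). The other MMP16 probe sets differed by -0.54 and 0.43 without passing. MMP14, the main activator of pro-MMP2, had 3 probe sets that all lay below the array median.

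The MMP14 signals were 4.78, 4.78 and 5.02 (HR3), 4.04, 5.04 and 4.79 (LR3), 4.58, 4.63 and 4.89 (HR7), and 4.73, 3.60 and 3.45 (LR7) for probe set A. For probe set C they were 3.26, 4.63 and 4.39 (HR3), 3.70, 3.64 and 4.43 (LR3), 3.34, 4.17 and 3.47 (HR7), and 4.23, 4.14 and 3.19 (LR7). Probe set B was listed at 3.23, 1.38 and 0 (HR3), 0.95, 4.33 and 0 (LR3), 3.38, 3.94 and 1.86 (HR7), and 2.30, 3.66 and 3.97 (LR7). The pools of the 2 days overlapped for each, and the differences of -0.43 (A), -0.25 (C) and 1.54 (B) had adjusted p of 0.217, 0.586 and 0.163. The first of these passed without LR7 pool 1 (-0.63, adjusted p 0.0437). Both MMP15 probe sets, at 0.20 and 0.44, did not pass.

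MMP19, which cuts basement membrane proteins, rose by 0.70 ± 0.15 (adjusted p 0.00382) with probe set B. Its other probe set, with pools listed at 0, differed by -0.03. MMP23, a membrane-anchored MMP, gave 6.98, 7.32 and 7.89 (HR3), 8.54, 7.72 and 6.70 (LR3), 6.09, 6.57 and 6.22 (HR7), and 6.82, 7.34 and 6.14 (LR7) for probe set A. The 3 HR7 pools lay below all day 3 pools, while LR7 overlapped them. The difference was -0.995 ± 0.29 (adjusted p 0.0215, and 0.0525 without HR3 pool 3), and the second probe set differed by -0.48 (adjusted p 0.0861).

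MMP20, enamelysin, known from tooth enamel, was listed at 0, 3.40 and 3.82 (HR3), 3.40, 2.36 and 2.36 (LR3), 0.33, 0 and 0 (HR7), and 1.43, 0 and 0 (LR7). Of the 6 day 7 pools 4 were at 0, and 1 of the day 3 pools was. The difference of -2.26 (adjusted p 0.0298) thus lies at the bottom of the scale. It shrank to -0.43 with 16 added to the signals, and the call was lost without any 1 of HR3 pool 2 or 3, LR3 pool 1, HR7 pool 2 and LR7 pool 2 or 3 (adjusted p 0.0534 to 0.0843).

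**Figure D3:**
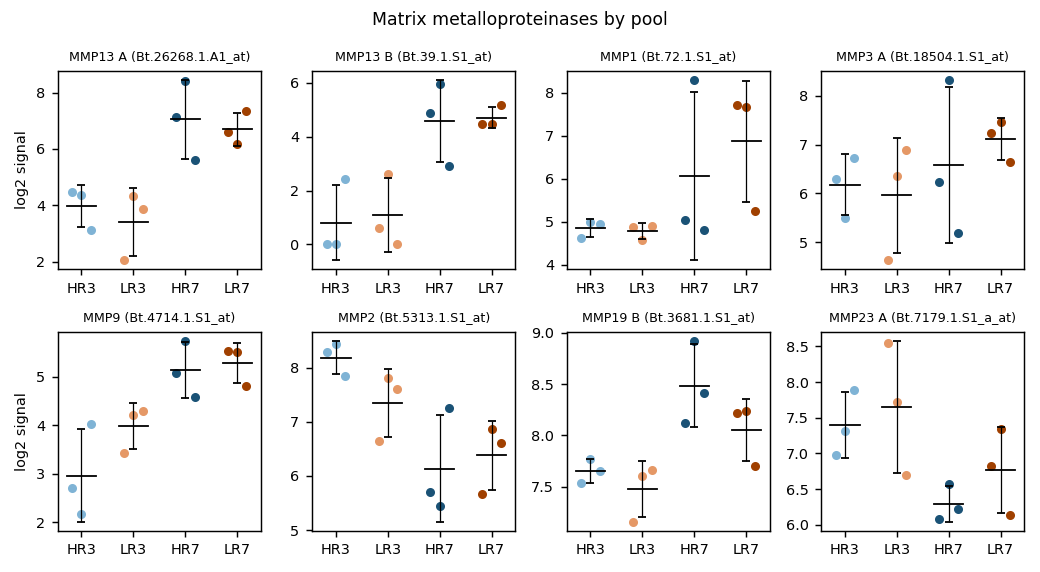
Log2 signal of 8 MMP probe sets in each of the 3 pools of HR3, LR3, HR7 and LR7 (points), with the group mean and SD (lines and bars) and a separate vertical scale for each panel. Both MMP13 panels and the MMP9 panel separate the days, while the day 7 pools of MMP1 span 4.81 to 8.31.

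ADAM10, the constitutive sheddase of Notch receptors and several growth factors, rose with all 3 of its probe sets. The log2 signals of probe set B were 8.50, 8.81 and 8.96 (HR3), 8.27, 8.61 and 8.44 (LR3), 9.80, 10 and 9.80 (HR7), and 10, 10.34 and 9.45 (LR7). Those of probe set A were 10.39, 10.55 and 10.65 (HR3), 10.61, 10.74 and 10.42 (LR3), 11.56, 11.66 and 11.37 (HR7), and 11.55, 11.85 and 11.11 (LR7). In both probe sets every day 7 pool lay above every day 3 pool, and the differences were 1.30 ± 0.14 (adjusted p 3.54e-05) and 0.96 ± 0.12 (adjusted p 8.8e-05), or 2.46-fold and 1.94-fold. The third, probe set C, gave 6.87, 7.87 and 7.66 (HR3), 7.09, 7.45 and 6.34 (LR3), 7.68, 8.47 and 8.45 (HR7), and 7.74, 8.42 and 8.34 (LR7). Its days overlapped, with a difference of 0.97 ± 0.23 (adjusted p 0.00772).

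ADAM19, a membrane protease of the meltrin group, fell. Its signals were 6.50, 6.36 and 6.26 (HR3), 5.31, 6.35 and 6.33 (LR3), 5.55, 5.40 and 5.11 (HR7), and 4.42, 5.08 and 5.18 (LR7). LR3 pool 1 was the single day 3 pool within the range of day 7, and the difference was -1.06 ± 0.20 (adjusted p 0.00179). ADAMDEC1, a soluble ADAM-like protease known from macrophages and the gut, gave 6.76, 6.56 and 7.10 (HR3), 7.19, 7.14 and 6.21 (LR3), 5.19, 4.85 and 5.66 (HR7), and 5.38, 6.82 and 5.94 (LR7) for probe set A. All HR7 pools were below all day 3 pools, and LR7 pool 2 was not. The difference was -1.19 ± 0.25 (adjusted p 0.00386).

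Probe sets of ADAM9 and ADAM1B disagreed. ADAM9, a widely expressed membrane protease, fell with probe set B, whose signals were 6.0, 6.46 and 6.35 (HR3), 6.71, 6.51 and 6.03 (LR3), 5.59, 5.73 and 5.92 (HR7), and 5.77, 5.70 and 5.90 (LR7). The days did not overlap, and the difference was -0.58 ± 0.14 (adjusted p 0.00732). The other ADAM9 probe sets differed by 0.01 (C) and 0.13 (A), with 95% intervals of -0.17 to 0.20 and -0.16 to 0.42. Probe set C was the brightest, with a mean of 10.55 over the 12 arrays and above the array median on all. Probe set B, which fell, had a mean of 6.06 and exceeded the array median on 1 array.

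ADAM1B, known as a sperm fertilin, gave 7.06, 7.27 and 7.14 (HR3), 6.99, 6.79 and 6.86 (LR3), 6.73, 6.54 and 6.61 (HR7), and 6.26, 6.38 and 6.54 (LR7) for probe set A. Day 7 lay below day 3 without overlap, with a difference of -0.51 ± 0.09 (adjusted p 0.00119), and the other probe set differed by 0.11 without passing. This pair was designed from the same transcript entry in the A and S orientations, and the probe set that passed is the one in the A orientation. Pairs of MMP3, MMP14, MMP15, MMP16 and ADAMTS5 were likewise designed in both orientations. ADAM2, ADAM12, ADAM15 and ADAM23, with 1 probe set each, did not pass, with differences from -0.76 for ADAM15, which had pools listed at 0, to 0.29 for ADAM2.

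Among the ADAMTS enzymes only ADAMTS1 passed over both groups. It cuts versican and aggrecan and is known as a progesterone-responsive gene of the ovary. Probe set A had log2 signals of 8.0, 8.50 and 8.41 (HR3), 7.97, 8.32 and 7.78 (LR3), 9.61, 9.90 and 9.51 (HR7), and 8.77, 8.96 and 8.49 (LR7). The HR7 pools lay above all others, and LR7 lay above day 3 except for LR7 pool 3, which was just below HR3 pool 2. The difference over both groups was 1.04 ± 0.13, or 2.06-fold (adjusted p 9.51e-05). The other probe set, B, gave 3.07, 4.72 and 4.72 (HR3), 4.10, 4.11 and 3.27 (LR3), 5.92, 6.09 and 5.68 (HR7), and 5.47, 5.13 and 4.30 (LR7). HR7 again exceeded every other pool, and the difference was 1.43 ± 0.31 (adjusted p 0.00436).

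ADAMTS4, aggrecanase 1, had log2 signals of 4.35, 4.23 and 4.50 (HR3), 5.21, 4.70 and 4.63 (LR3), 4.54, 4.62 and 4.35 (HR7), and 3.70, 3.45 and 4.12 (LR7). LR7 was lowest and LR3 highest, without overlap with HR of the same day on day 7 or on day 3. The day difference over both groups was -0.47 ± 0.18 and did not pass (adjusted p 0.0649, and 0.0361 without LR7 pool 3). Within LR it was -1.09 (adjusted p 0.013), a call lost without LR3 pool 1 (0.0583), without LR7 pool 2 (0.0507), and with pool number as a block among the LR arrays alone (0.0668). ADAMTS2, which trims procollagen, and ADAMTS5, ADAMTS6 and ADAMTS8 did not pass, and 1 of the ADAMTS5 probe sets, at -1.35, had a pool listed at 0.

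TIMP2, which inhibits MMP2 and also takes part in its activation by MMP14, rose with each of 3 probe sets. Probe set C gave 11.96, 11.78 and 11.77 (HR3), 12.62, 11.47 and 12.0 (LR3), 12.95, 13.04 and 12.96 (HR7), and 12.73, 13.14 and 12.91 (LR7). All day 7 pools were above all day 3 pools, with a difference of 1.02 ± 0.15, or 2.03-fold (adjusted p 0.000365). Probe set B gave 6.61, 6.73 and 6.73 (HR3), 6.21, 6.35 and 5.82 (LR3), 7.19, 6.96 and 7.21 (HR7), and 7.54, 7.38 and 7.35 (LR7). The order from lowest was LR3, HR3, HR7 and LR7 without overlap between any of them, and the difference over both groups was 0.86 ± 0.11 (adjusted p 9.49e-05). Probe set A gave 10.31, 9.74 and 9.82 (HR3), 10.01, 9.97 and 9.74 (LR3), 10.36, 10.30 and 10.41 (HR7), and 10.22, 10.56 and 10.51 (LR7). HR3 pool 1 lay within the day 7 range, and the difference was 0.46 ± 0.10 (adjusted p 0.00539).

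TIMP1, a secreted inhibitor of most soluble MMPs, had signals of 9.08, 9.04 and 8.68 (HR3), 8.39, 8.45 and 8.70 (LR3), 9.08, 9.25 and 9.28 (HR7), and 9.13, 8.37 and 9.06 (LR7) for probe set A. For probe set B, which by its name may bind more than 1 transcript, they were 9.38, 9.17 and 8.85 (HR3), 8.62, 8.77 and 9.01 (LR3), 9.27, 9.24 and 9.39 (HR7), and 9.12, 8.61 and 9.19 (LR7). The days overlapped in both, and the differences of 0.31 and 0.17 did not pass (adjusted p 0.102 and 0.329). The 95% interval of the first was 0.02 to 0.59.

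TIMP3, which binds to the matrix and also inhibits ADAMs, gave 8.12, 8.52 and 8.38 (HR3), 7.12, 8.26 and 8.25 (LR3), 8.80, 9.36 and 8.56 (HR7), and 8.21, 8.82 and 8.11 (LR7). LR3 pool 1 was lowest and HR7 pool 2 highest. The difference of 0.54 ± 0.21 did not pass (adjusted p 0.0791), though it did with pool number as a block (0.0256) and among the probe sets that met a stand-in for present calls (0.0461). TIMP4, a TIMP of more limited tissue range, had probe set C at 5.98, 6.13 and 5.12 (HR3), 4.98, 5.73 and 5.93 (LR3), 4.89, 4.04 and 5.04 (HR7), and 4.83, 5.29 and 5.52 (LR7). HR7 pool 2 was lowest and the days overlapped. Its difference of -0.71 (adjusted p 0.0487) was lost without any 1 of 8 of the pools, which were HR3 pools 1 and 2, LR3 pools 2 and 3, HR7 pools 1 and 2 and LR7 pools 1 and 2 (0.0569 to 0.115), and its other probe sets differed by 0.26 and -0.20.

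**Figure D4:**
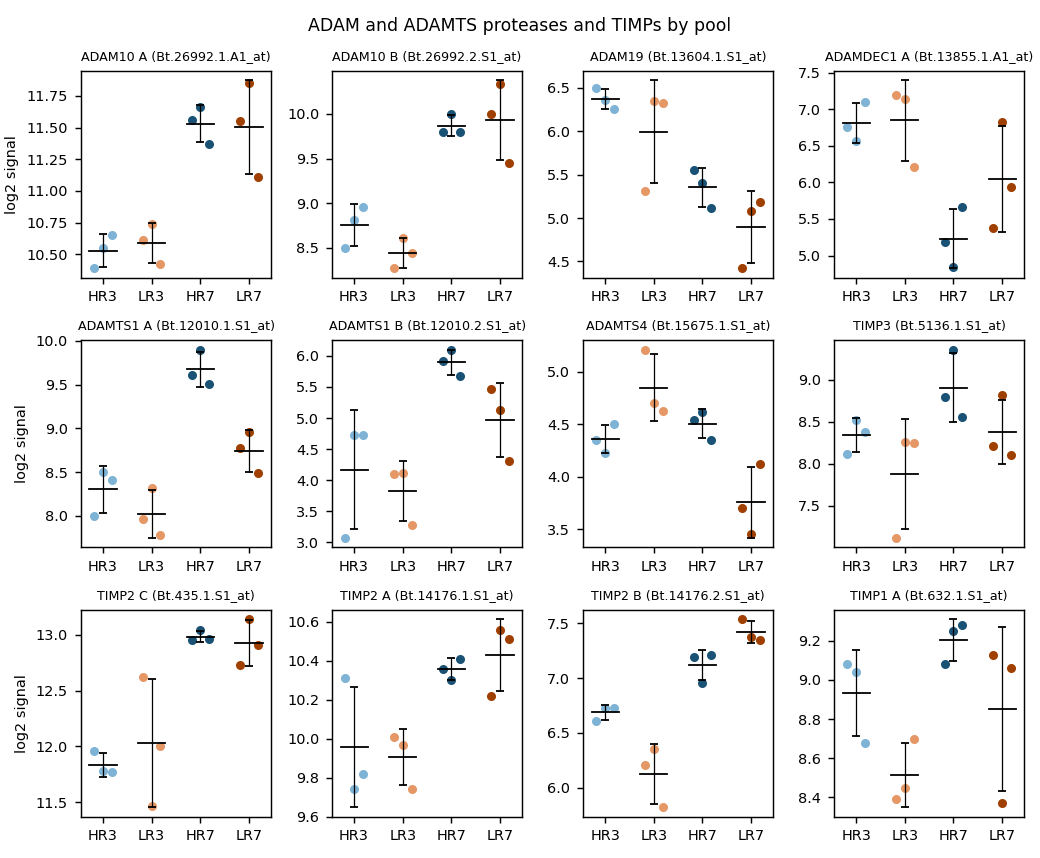
Log2 signal of 12 probe sets of ADAM, ADAMDEC1, ADAMTS and TIMP genes in each of the 3 pools of HR3, LR3, HR7 and LR7 (points), with the group mean and SD (lines and bars) and a separate vertical scale for each panel. ADAM10 and TIMP2 (probe set C) separate the days, and both ADAMTS1 panels have HR7 above LR7.

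Within HR, 13 of the 53 probe sets passed between the days, 9 higher and 4 lower, which is 24.5% beside 14.4% of all probe sets (7.34% higher, 7.08% lower). Within LR it was also 13, 9 higher and 4 lower, or 24.5% beside 14.9% of all probe sets (7.9% higher, 7.03% lower). At an unadjusted p under 0.05 there were 21 in HR, beside 28.2% of all probe sets, and 23 in LR, beside 29.4%. The days did not overlap for 21 probe sets within HR and for 21 within LR, where 34.7% and 30.3% of all probe sets did not overlap. The probe sets that passed in both were 8, or 61.5% of each list, and belonged to MMP13, ADAM10, ADAM19, ADAM1B, ADAMTS1 and TIMP2. For all probe sets the shares were 63.3% of those passing in HR and 61.2% of those passing in LR. MMP2, MMP9, MMP19 (B), ADAMDEC1 (A) and the second ADAMTS1 probe set passed in HR and not in LR. ADAM9 (B), ADAMTS4, 2 of the TIMP2 probe sets and 1 of ADAM10 passed in LR and not in HR.

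Most of these calls were lost when 1 or another pool was left out. Counts over all probe sets with a pool left out are not given here, so these losses cannot be read as particular to these genes. Within HR, 5 of the 13 kept their call whichever pool was left out, those of ADAM10 (A and B), ADAMTS1 (A), TIMP2 (C) and MMP9, and within LR 4 of the 13, those of ADAM10 (A and B), MMP13 (A) and TIMP2 (B). The count in HR was 7 without HR7 pool 2, where MMP2, ADAMDEC1, MMP19, ADAM19, ADAM1B, both MMP13 probe sets and ADAMTS1 (B) lost their call (adjusted p 0.0519 to 0.0902). ADAM19 lost it in HR without any 1 of the 6 HR pools (0.0514 to 0.0987), and in LR without LR3 pool 2 or 3 or LR7 pool 1. The count in LR was 6 without LR3 pool 1 and 8 without LR7 pool 2, and in both cases ADAM9, ADAM1B, ADAMTS4, ADAMTS1 (A), ADAM10 (C) and TIMP2 (A) did not pass in LR. The ADAM9 call in LR, at an adjusted p of 0.0467, was lost without any 1 of 10 pools (up to 0.165), with arrays centred on their medians (0.0548) and with pool number as a block over all arrays (0.0719). With pool number as a block among the LR arrays alone, a fit added after the data were seen, 13 passed in LR, 9 of them among those above, and ADAM1B (0.0878), TIMP2 (C, 0.0786), ADAM9 (0.101) and ADAMTS4 did not.

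None of these differences between HR and LR in the change with the day passed the interaction test, nor did any of the 24016 probe sets (0.0%). At an unadjusted p under 0.05, 4 of the 53 probe sets reached it, beside 3.72% of all. The lowest p was that of the TIMP2 probe set B, whose level on day 7 minus day 3 was 1.30 in LR and 0.43 in HR, a difference in change of -0.87 ± 0.21 (p 0.00131, adjusted p 1). The other TIMP2 probe sets gave -0.12 and 0.25. ADAMTS4 had a difference in change of 1.23 ± 0.36 (p 0.00448) and ADAMTS1 of 0.65 ± 0.25 (p 0.024), both with an adjusted p of 1. The remaining probe set was MMP19 (A), with a difference in change of -3.05, the largest of the 53, and with pools listed at 0.

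**Figure D5:**
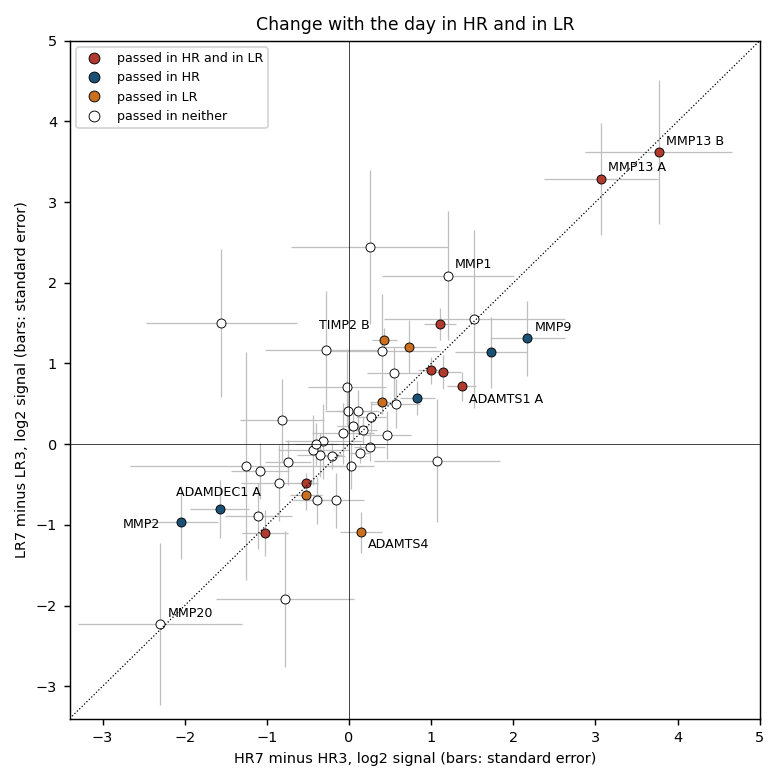
Change in log2 signal from day 3 to day 7 in HR (horizontal axis) and in LR (vertical axis) for the 53 probe sets, with standard errors as bars, the line of equal change dotted and colours for the groups in which a probe set passed. Of the 53, 40 have the same sign on both axes, as do 74.8% of all probe sets, and ADAMTS4 (0.14 in HR, -1.09 in LR) and MMP2 (-2.05 and -0.97) lie off the line.

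On day 3, none of the 53 probe sets passed between HR3 and LR3, where 0.00416% of all probe sets did. At an unadjusted p under 0.05 there were 4, beside 7.04% of all probe sets, and for 6 the groups did not overlap, beside 10.2%. An ordinary linear model without moderated variances called none either. The median difference was 0.10, beside 0.02 over all probe sets. TIMP2 had the lowest p, with probe set B higher in HR3 by 0.56 ± 0.15 (95% interval 0.24 to 0.89, p 0.00243, adjusted p 0.70) and without overlap, while the other TIMP2 probe sets differed by 0.05 (A) and -0.19 (C). TIMP1 was higher in HR3 by 0.42 (p 0.042) and MMP9 differed by -1.02 (p 0.0461), both with an adjusted p of 0.708. The MMP9 difference was -0.62 without HR3 pool 2, -1.54 without HR3 pool 3 and -0.38 with 16 added to the signals. MMP2 was above every LR3 pool in all 3 HR3 pools, by 0.83 on average (p 0.091), beside the higher stroma markers in HR3.

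On day 7, none passed between HR7 and LR7, where 0.0208% of all probe sets did. At an unadjusted p under 0.05 there were 6, beside 3.73% of all probe sets, and for 6 the groups did not overlap, beside 8.16%, of which 4 were ADAMTS probe sets. The ordinary linear model called none. The median difference was -0.06, beside 0.01 over all probe sets. ADAMTS1 was higher in HR7 with both probe sets and without overlap, by 0.93 ± 0.18 for probe set A (95% interval 0.54 to 1.32, p 0.000199, adjusted p 0.365) and by 0.93 ± 0.44 for the other (p 0.0554). With pool number as a block and the day 7 arrays alone in the fit, a choice made after the data were seen, the first had an adjusted p of 0.0473 and was the only 1 of the 53 to pass, among 18 of all probe sets.

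ADAMTS4 was likewise higher in all HR7 pools than in all LR7 pools, by 0.75 ± 0.25 (95% interval 0.20 to 1.29, p 0.0115, adjusted p 1), or by 0.385 with 16 added to the signals. ADAMDEC1 gave 2.69, 3.68 and 2.74 (HR3), 2.77, 3.95 and 3.06 (LR3), 2.05, 1.56 and 3.05 (HR7), and 3.88, 3.80 and 3.0 (LR7) for its second probe set, B. HR7 pools 1 and 2 were the lowest of all pools, and the difference of -1.34 ± 0.51 did not pass (p 0.0219, adjusted p 1) and was -0.42 with 16 added to the signals. Probe set A, brighter with a mean of 6.23 over the arrays beside 3.02 for B, differed by -0.81 ± 0.36 (95% interval -1.59 to -0.04, p 0.0409). It did not pass after adjustment either. The arrays set how small a difference between HR and LR could be bounded. The 95% interval lay within 1 log2 unit of 0 for 27 of the 53 probe sets on day 3 and for 24 on day 7, and its median width to either side was 0.71.

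Genes known to act with these proteases were described from lists. Of 24 activators and other inhibitors 16 were measured, of which 5 rose and 2 fell on day 7 against day 3 over both groups, with a median difference of 0.10. The urokinase PLAU, which starts the plasmin cascade that activates MMPs, rose by 0.94 and its receptor PLAUR by 0.78. The MMP inducer BSG rose by 0.77 and the protease inhibitors SERPINE2 by 0.79 and TFPI2 by 0.73. Of the ADAM10-binding tetraspanins, TSPAN15 and TSPAN5 fell by 0.48 and 0.62. TSPAN14, TSPAN17 and TSPAN33 differed by 0.09, 0.11 and -0.32 without passing.

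Of 26 proteins shed by ADAMs 15 were measured, of which 5 rose and 4 fell, with a median difference of 0.14. AREG, the EGF receptor ligand amphiregulin, rose by 1.94, IL6R by 1.28, L1CAM by 0.65, BTC by 0.59 and APP by 0.35. JAG1, a Notch ligand, fell by 2.04, the TNF receptors TNFRSF1A and TNFRSF1B by 0.44 and 0.37 and CDH1 by 0.42. Of 16 proteoglycans and fibrillar proteins cut by ADAMTS enzymes 15 were measured, and 5 fell and none rose, with a median of -0.47. LUM fell by 2.19, FBN1 by 1.74, VCAN by 1.37, BGN by 1.34 and FN1 by 0.53, and LUM is also among the stroma markers, whose part in these differences was not tested. Between HR and LR, none of the measured genes of these 3 lists passed on either day.

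The several probe sets of a gene did not always move together. Of 16 genes with more than 1 probe set, all probe sets passed over both groups in 4 (ADAM10, TIMP2, MMP13 and ADAMTS1), some in 7 and none in 5, and 8 genes had probe sets that differed in sign. In ADAM1B, ADAMTS5, MMP3, MMP14 and MMP16 the A and S orientation pair from the same transcript entry differed in sign. Of 14 genes with a single probe set, 5 passed.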

How the data were processed

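RNA of 12 pools, 3 in each of 4 groups, was hybridised to Affymetrix bovine arrays of 24016 probe sets besides 112 controls. The deposited values are log2 signals that the authors scaled in GCOS 1.1.1 and estimated with PLIER in Affymetrix Expression Console, as the submitters' processing notes and the methods say. Their present calls were not used here, the number of arrays limits the precision, and PLIER lists some signals at 0, whose differences depend on that floor. Of the probe sets 13292 had 1 gene symbol in the platform annotation, 86 several and 10638 none, and all 53 of the proteases and inhibitors matched a current symbol by gene ID.

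All 24016 probe sets were fitted with 1 mean per group in limma 3.58.1 (R 4.3.3; lmFit, then eBayes with an intensity trend), and p-values were adjusted by Benjamini and Hochberg within each of 6 comparisons. The threshold was an adjusted p below 0.05. Tables and plots were made in Python 3.11.15 with pandas 2.3.3, numpy 2.4.6 and matplotlib 3.10.9. No filter was applied, so that every probe set was tested, and a stand-in for the authors' filter on present calls and variability was an alternative, with other normalizations, an added signal of 16, a block for the pool number, other variance models and the omission of each pool. Nothing says that pools of the same number are related. Deviations from the group means correlated at 0.113 to 0.423 between HR7 and LR7 pools of the same number. Between LR3 and LR7 they did at 0.203 to 0.512, and between other groups not above 0.1 in every pair. Between HR3 and LR3 the same numbers gave -0.455 to -0.074. Pools of unlike number ranged from -0.422 (HR7 pool 3 with LR7 pool 1) to 0.359 (LR3 pool 1 with HR7 pool 2). Values per pool are given for the 3 lowest p of each comparison without passing probe sets, for up to 8 changes with the day in each direction, and for MMP2, MMP9, MMP14, TIMP1, TIMP2, TIMP3, ADAM10, ADAMTS1 and ADAMTS4. The rule also held ADAM17, which had no named probe set. A list gene was measured by its probe set with the highest mean. The genes, lists and tests were chosen with earlier results of these data known. The p-values set a group difference against the spread between pools, which was shared over the 4 groups and moderated over all probe sets.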

Additional observations from a re-analysis of the deposited data

How the results depend on the processing

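Between HR and LR on either day, and in the interaction, 0 of the probe sets passed in every planned setting with an adjusted p. With an unadjusted p under 0.05, 4 passed in HR3 against LR3, 6 in HR7 against LR7, 21 in HR7 against HR3, 23 in LR7 against LR3 and 4 in the interaction. Only 16 of the metalloproteinase and TIMP probe sets met the stand-in for present calls. Of these 16, 7 passed in HR7 against HR3 and 12 over both groups. Above the median mean level, where fewer were tested as well, 7 passed in HR7 against HR3, 8 in LR7 against LR3 and 11 over both. With fewer probe sets tested, a lower count under these filters does not by itself mean a lower share passing. The ordinary linear model gave 6 in HR7 against HR3 and 6 in LR7 against LR3, and the compared groups alone gave 7 in LR7 against LR3. With each pool left out in turn the counts ranged from 7 (without HR7 pool 2) to 15 in HR7 against HR3, from 6 (without LR3 pool 1) to 14 in LR7 against LR3 and from 19 to 22 over both, and stayed at 0 in HR3 against LR3, HR7 against LR7 and the interaction.

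With pool number as a replicate block over all 12 arrays, 13 passed in HR7 against HR3, 12 in LR7 against LR3, 21 over both and 0 in the other comparisons. MMP16 probe set C (adjusted p 0.0511) and TIMP4 probe set C (0.0681) lost their call over both under this block. With the block and the compared groups alone, 1 passed in HR7 against LR7, and MMP9 (adjusted p 0.0584), MMP13 probe set B (0.0658) and ADAM1B probe set A (0.0694) lost their call in HR7 against HR3. Over all settings, 1141 values of the named probe sets kept direction and call, 130 kept the direction and lost the call, 18 gained it and 0 reversed. The cause of these changes was not tested. Shares of all probe sets under these settings are not given beside the counts. A change in count can therefore not be read as particular to the proteases and inhibitors.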

Other observations

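Markers of other cell types, taken as lists, were read beside the proteases over both groups on day 7 against day 3. Of 10 markers of T and NK cells 8 passed lower and none higher, with a median difference of -0.68, and of 3 measured markers of ciliated epithelium all 3 passed lower, with a median of -1.07. Of 5 measured markers of basal and squamous epithelium 3 passed higher, with a log2 summed signal of 11.4 to 12.0 in HR7 and 9.0 to 9.35 in LR7, against 8.06 to 8.69 in HR3 and 7.82 to 8.77 in LR3. Of 10 measured markers of uterine epithelium 3 passed lower, with a median of -0.11. Endothelium (1 higher and 1 lower of 8), smooth muscle (1 higher of 7) and B and plasma cells (1 higher of 5) had few passing markers. The part of these cell types in the differences of the proteases was not tested.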
